A study of Mus musculus with 2 samples.

Results

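The cyclins, cyclin-dependent kinases (CDKs) and mitotic regulators described here are a list of 42 mouse genes, chosen by name from the core cell cycle machinery. Of these, 40 were measured by at least 1 probe set that carried no other gene's symbol, out of 16358 genes on the array that were. Ccnb1 and E2f3 had no such probe set and were not analysed here. The study compared the transcriptomes of wild-type (WT) and Smad3-/- mouse embryonic stem cells (ESCs), both of C57BL/6 background and both grown with LIF and 2i, which is the Gsk3 inhibitor CHIR99021 together with the Mek inhibitor PD0325901. Smad3 is a transcription factor that acts downstream of Activin, Nodal and TGF-β. The methods describe the lines as first kept on feeder cells and then passaged on gelatin until free of them. Each genotype was measured on 1 Affymetrix mouse exon array, so that no difference below has a replicate check, an error over cultures or a test, and line and genotype cannot be told apart.

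A cell passes through its cycle because cyclins, which appear and are destroyed in turn, switch on the CDKs they bind. D-type and E-type cyclins lead the cell out of G1 by inactivating the pocket proteins of the Rb family, which frees the E2F factors to switch on genes of DNA replication. A- and B-type cyclins with Cdk1 then drive mitosis, and ubiquitin ligases end it by destroying them. Mouse ESCs are known for a short G1 phase, for little D-type cyclin activity and for E-type cyclin activity that hardly varies through the cycle.

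On an exon array a gene is read by several probe sets, each covering a piece of the transcript. The level of a gene is given as the median of its probe sets' log2 signal, and its difference as the median, over those probe sets, of the value labelled Smad3-/- less the value labelled WT. Where a gene has 2 levels side by side, the WT level stands first. "Higher" and "lower" always refer to the array labelled Smad3-/-. A gene was called past 1.5-fold when its log2 difference exceeded 0.585 in size, and expressed when the higher of its 2 levels reached 8.64, the middle of such values among the 16358 genes. Signals of different genes come from different probes, so levels are set against each other only between the arrays, and the SD given for a gene is the spread over its probe sets, which are not replicates. Counts of higher and lower probe sets are as deposited, and those of genes near 0 move when all values are shifted or rescaled.

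Both arrays carried the markers of ESCs. All 10 ESC markers were expressed, with levels of 10.71 to 13.63 on the WT side and 10.65 to 13.71 on the Smad3-/- side, and 0 passed 1.5-fold. Of their differences 9 were above 0 and 0 below, with a median of 0.0975. Of 15 fibroblast markers, which would report feeder cells, 1 reached the expression floor, and their levels were 5.07 to 8.77 and 5.26 to 8.595 on these sides, with 8 of the 15 differences above 0, 6 below and a median of 0.01. The 1 expressed, the collagen gene Col1a1, had -0.22 with 40 of 53 probe sets lower. The collagen genes Col1a2, Col3a1 and Col6a1, under the floor, had -0.155, -0.225 and -0.21. Most of their probe sets were lower too (37 of 52, 37 of 54 and 25 of 34). Under the floor the differences ran from -0.335 for Twist1 to 0.99 for Pdgfrb, the 1 fibroblast marker past 1.5-fold. Of 11 differentiation markers 2 were expressed, Eomes with 0.00 and the keratin gene Krt18 with 0.59, the 1 of this list past 1.5-fold. Over the 11, 5 were above 0, 5 below and the median was 0.00, with Fgf5 the lowest at -0.31. The part of these cells in the results below was not tested. Of the 16 probe sets of Smad3, 14 were higher, 7 of them by more than 1.5-fold, and 2 were lower, 1 of them by 2.50. The deleted gene's median of 0.375 therefore does not by itself check the label. Lefty1, a known target of Activin and Smad3 signalling, was lower by 1.05 on the log2 scale, with all 7 of its probe sets lower.

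Some of the upstream sequences of these genes are shown because the cell cycle groups described below are known by motifs there. Genes of the G2 phase and mitosis often carry CCAAT boxes, bound by the factor NF-Y, and a CHR element, through which the DREAM and B-Myb complexes act, whereas genes of G1 and S phase often carry E2F sites. RefSeq promoters (GRCm38.p6) matched 33 of the 42 genes, with 40 annotated starts, and not Ccnd1, Ccnd2, Ccne2, Ccna2, Rb1, E2f4, E2f5, Cdc25c and Aurkb. The letters searched on both strands of the 100 bases before each start were CCAAT, for CHR TTTGAA and TTCGAA, and for E2F TTTCCCGC, TTTGGCGC and TTTCGCGC. Capitals mark the matches, and each line reads 5′ to 3′ in the direction of the gene, ending at the base before the start.
Cdk1: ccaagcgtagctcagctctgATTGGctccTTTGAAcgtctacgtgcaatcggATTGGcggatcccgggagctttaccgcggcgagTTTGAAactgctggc
Ccnb2: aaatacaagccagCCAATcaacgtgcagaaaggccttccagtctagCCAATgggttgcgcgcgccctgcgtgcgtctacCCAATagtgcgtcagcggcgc
Cdc20: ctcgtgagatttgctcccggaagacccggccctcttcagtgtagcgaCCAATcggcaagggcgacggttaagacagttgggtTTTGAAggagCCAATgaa
Ccnf: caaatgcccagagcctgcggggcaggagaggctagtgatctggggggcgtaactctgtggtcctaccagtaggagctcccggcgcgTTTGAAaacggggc
Tfdp1: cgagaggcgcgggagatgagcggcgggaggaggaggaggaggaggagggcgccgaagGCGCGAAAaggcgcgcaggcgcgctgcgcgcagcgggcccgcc
Cdkn2c: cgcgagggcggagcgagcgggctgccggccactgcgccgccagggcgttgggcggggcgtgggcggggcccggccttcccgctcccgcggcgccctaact

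These stretches lie at chr10:69352913-69353012 on the minus strand for Cdk1, at chr9:70421555-70421654 on the minus strand for Ccnb2, at chr4:118437344-118437443 on the minus strand for Cdc20 and at chr17:24251410-24251509 on the minus strand for Ccnf. Those of Tfdp1 (chr8:13338651-13338750, plus strand) and Cdkn2c (chr4:109666757-109666856, minus strand) are shown because these genes had, respectively, a difference shared by every probe set and the only difference past 1.5-fold. Cdk1 held 2 CCAAT boxes and 2 CHR matches, Ccnb2 3 CCAAT boxes, Cdc20 2 CCAAT boxes and 1 CHR match, and Ccnf 1 CHR match. Not all mitotic genes held such matches. Of those not shown, Bub1b and Mad2l1 held none, and Plk1, Aurka, Bub1 and Ccnb1 held CCAAT without a CHR match. Tfdp1 held 1 E2F match, and Cdkn2c held none of these letters in this window. Over all members, CCAAT stood in 15 of 40 windows against 18.9% of all 32851 promoter windows of that length, CHR in 7 of 40 against 6.13%, CCAAT with CHR in 4 of 40 against 1.14%, and an E2F match in 5 of 40 against 0.685%. Some genes have several starts, and by gene the matches lay in 14 of 33 for CCAAT, 7 for CHR, 4 for both together and 4 for E2F. Matches of different motifs overlapped in 16 of the 32851 windows and in 0 of those of the members. These counts describe letters, and no binding was measured.

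As a whole, the cell cycle genes lay close to equal levels on the 2 arrays. Of the 40 measured genes 1, the CDK inhibitor gene Cdkn2c, was higher by more than 1.5-fold, where 1.14% of all genes were, and 0 were lower, where 0.685% of all genes were. Among the 36 expressed members 0 were past 1.5-fold in a given direction, beside 0.88% of expressed genes higher and 0.195% lower. A difference of 0.1 or less in size was found in 30 of the 40 members, beside 46.1% of all genes. Differences are smaller at high signal, and 24 of the members lay in the brightest 25% of genes. Within that class 19 of 24 members were within 0.1, beside 59.8% of its 4101 genes. The median difference was 0.0175 over the members and 0.035 over all genes, and 0.06 over that brightest class. In cells measured in bulk, fewer cells in a phase of the cycle and less RNA per cell cannot be told apart.

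**Figure D1:**
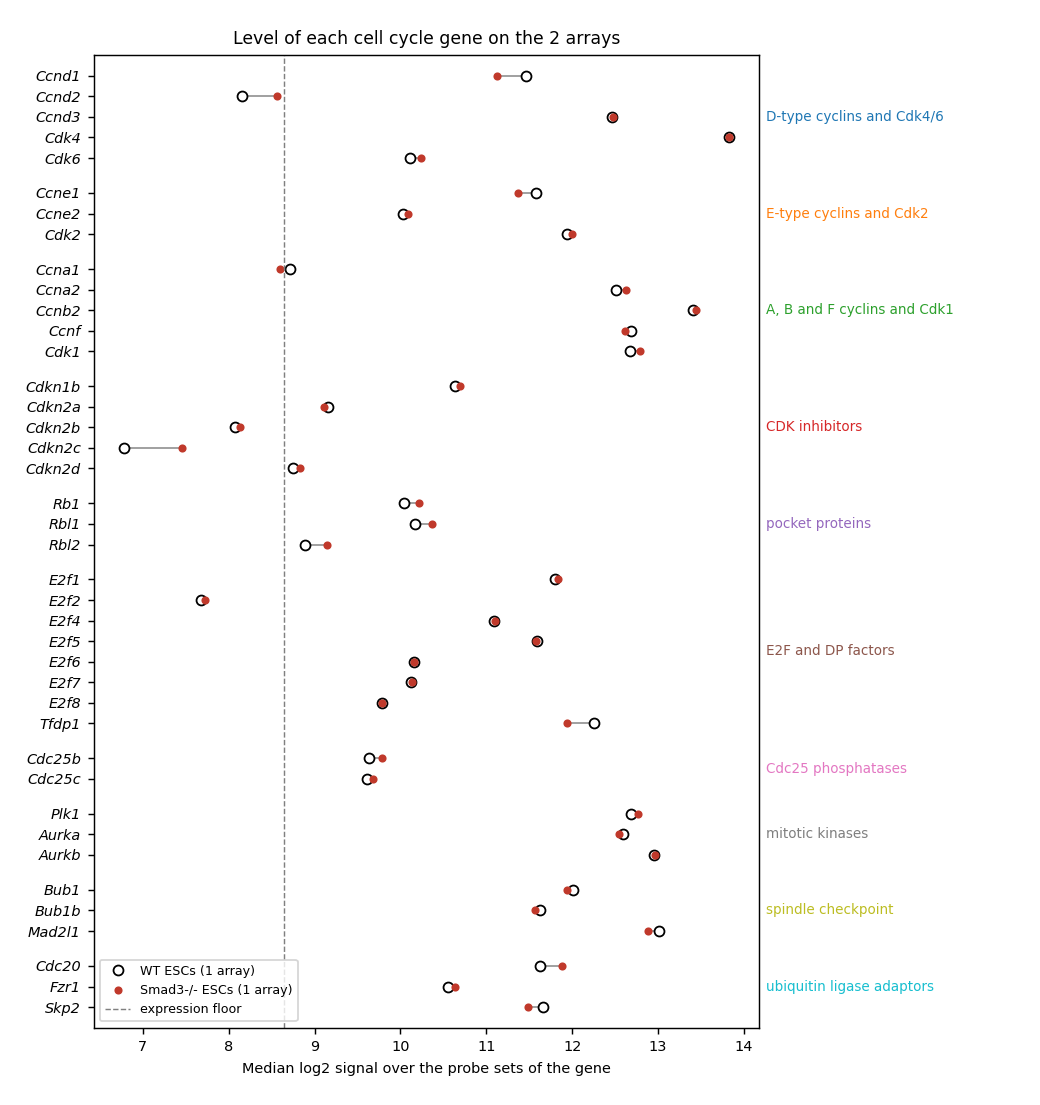
Level of each of the 40 measured genes (x axis, median log2 signal over its probe sets) in the WT array (open circles) and in the array labelled Smad3-/- (red), by role, with 1 array per genotype and the expression floor of 8.64 as a dashed line. Most pairs of circles touch, while Ccnd1 (11.46 and 11.13) and Tfdp1 (12.255 and 11.94) are visibly lower. Cdkn2c (6.78 and 7.46) and Ccnd2 (8.15 and 8.56) are higher at signals under the floor. Rbl2 (8.89 and 9.15) and Cdc20 (11.62 and 11.88) are also higher and Ccne1 (11.58 and 11.37) lower. The median differences over probe sets were smaller in size for Ccnd2 (0.08), Rbl2 (0.02), Cdc20 (0.105) and Ccne1 (-0.07).

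Among the D-type cyclins, the regulatory partners of Cdk4 and Cdk6 in G1, the 3 genes gave unlike values. Ccnd1, which encodes cyclin D1, had a level of 11.46 in the array labelled WT and 11.13 in that labelled Smad3-/-, and its difference of -0.355 (SD 0.17 over 6 probe sets) is 1.28-fold. All 6 of its probe sets were lower, by -0.74 to -0.27, and its 3 brightest read 12.84, 12.85 and 12.57 in the array labelled WT against 12.48, 12.43 and 12.26. That is the largest difference among the expressed members, and it remained between -0.419 and -0.33 under every alternative summary and scaling tried. Only 0.984% of the 12913 genes with 6 or more probe sets had every probe set lower, and of the 36 members with as many, 2 did, Ccnd1 and Tfdp1.

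Ccnd2, encoding cyclin D2, is a member that the study followed as a proliferation gene, in ESCs and in teratomas, of which these arrays measured ESCs. Its level was 8.15 in the array labelled WT and 8.56 in that labelled Smad3-/-, both under the expression floor, but its difference over 7 probe sets was 0.08 (SD 0.217). Of the 7 probe sets 5 were higher, 1 was equal and 1, the brightest, was lower. After quantile normalization and with the median gene difference set to 0, 4 were higher and 3 lower. The brightest read 11.05 and 10.82, a difference of -0.23, whereas the 3 with the highest differences, of 0.20, 0.33 and 0.41, read 8.64, 6.54 and 8.15 in the WT array. The sign of the Ccnd2 difference was thus positive in most probe sets and negative in the brightest, and the difference of the gene's 2 medians, 0.41, comes from a single probe set that was the middle one on both arrays. Ccnd3, encoding cyclin D3, had 12.46 and 12.48 and a difference of -0.03 over 9 probe sets.

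Cdk4, the G1 kinase, had the same level of 13.825 on both arrays, a difference of 0.00, and the smallest spread over probe sets of all members (SD 0.0748, n = 10 probe sets). Cdk6, its close relative, had 10.11 in the array labelled WT and 10.24 in that labelled Smad3-/- and a difference of 0.175 (SD 0.233, 10 probe sets). All 10 Cdk6 probe sets were higher, by 0.01 to 0.72, where 3.78% of genes with 6 or more probe sets had every probe set higher. This did not hold after rescaling, since 9 of 10 remained higher with the median gene difference set to 0 and 6 after quantile normalization. Ccnd1 and Tfdp1 kept all their probe sets lower under both. Of the 12913 genes with 6 or more probe sets, 127 had every probe set lower as deposited. After quantile normalization 243 did, and with the median gene difference set to 0 it was 196.

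**Figure D2:**
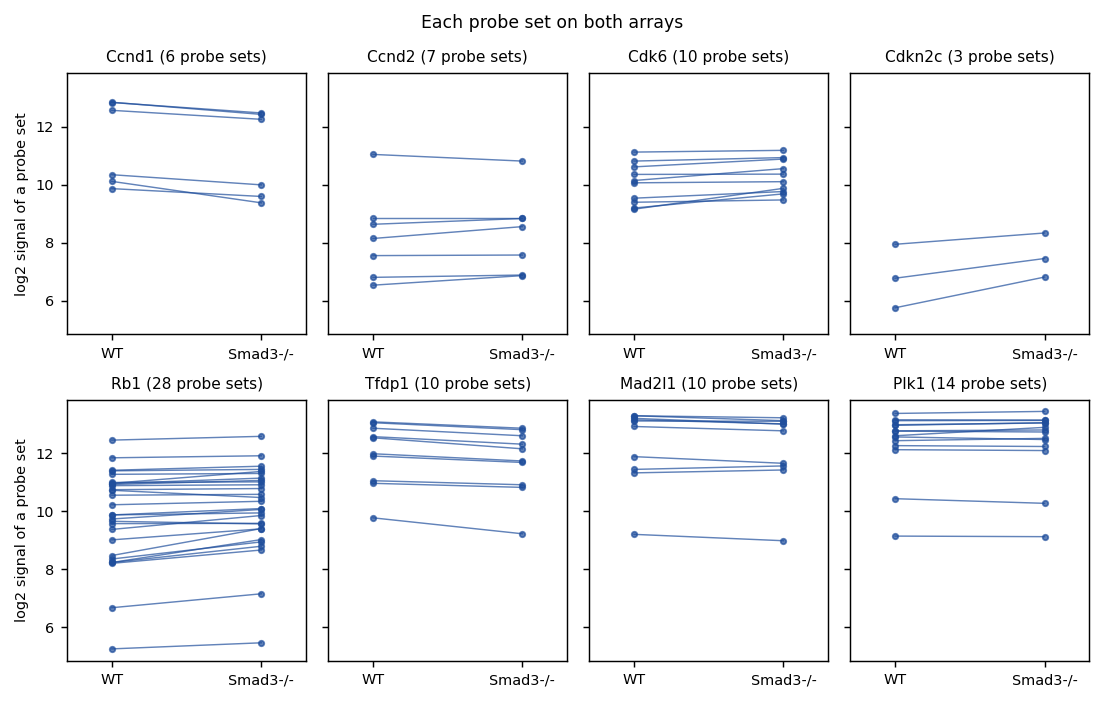
Log2 signal (y axis) of every probe set of 8 members on the WT array and on the array labelled Smad3-/-, with a line joining the 2 readings of each probe set. All 6 lines of Ccnd1 and all 10 of Tfdp1 fall and all 3 of Cdkn2c climb, while those of Ccnd2 cross directions and those of Plk1 lie level.

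Ccne1 and Ccne2, the E-type cyclins that open S phase with Cdk2, lay near equal levels. For Ccne1 the levels were 11.58 and 11.37, and the median difference was -0.07 (SD 0.0995), with 12 of 15 probe sets lower and none below -0.33. The difference of its 2 gene medians, -0.21, is larger in size than the median over its probe sets. Ccne2 had 10.035 and 10.085 with a difference of 0.015. Their kinase Cdk2 had 11.94 and 12.00 with a difference of 0.02 and 7 of 13 probe sets higher.

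The cyclins and kinase of S phase and mitosis were close to equal on both arrays. Cdk1, named Cdc2a on the array and the CDK that mouse cells cannot divide without, had 12.675 in the array labelled WT and 12.785 in that labelled Smad3-/- and a difference of 0.02 over 10 probe sets. Ccnb2, a B-type cyclin with 3 CCAAT boxes in the stretch shown above, had 13.41 and 13.44 and a difference of 0.02. Ccnf, encoding the F-box cyclin F, had 12.69 and 12.61 and a difference of 0.01 over 19 probe sets. Ccna2, the A-type cyclin of dividing somatic and stem cells, had 12.51 and 12.63 and a difference of -0.06 (SD 0.18), but its brightest probe set read 13.67 and 13.21, lower by 0.46 on the log2 scale, and 6 of its 13 probe sets were higher. Ccna1, the A-type cyclin of the male germ line, had 8.72 and 8.60 near the floor and a difference of 0.08 over 12 probe sets that ran from -0.33 to 0.67.

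The CDK inhibitors held the 1 member past 1.5-fold, and 2 of these 5 genes were under the expression floor. Cdkn2c, which encodes the Ink4 inhibitor p18 of Cdk4 and Cdk6, had 6.78 in the array labelled WT and 7.46 in that labelled Smad3-/-, a difference of 0.68 (SD 0.336) or 1.60-fold. Its 3 probe sets read 7.95, 6.78 and 5.76 in the WT array and 8.34, 7.46 and 6.82 in the array labelled Smad3-/-, so that all 3 were higher and the brightest was higher by the least, 0.39. Its call was lost at that probe set, with a pseudocount of 50 on the linear scale (0.50), when the probe set farthest from the median was left out (0.535) and when genes under the floor were left out. With 3 probe sets, all dim, it is also the member read by the fewest.

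The other inhibitors stayed within 1.5-fold. Cdkn2b, the Ink4 inhibitor p15 and a known target of TGF-β signalling, had 8.07 and 8.13, but its median difference was -0.20 (SD 0.2825), because 3 of 5 probe sets were lower by 0.20 to 0.24 on the log2 scale and the other 2 higher by 0.29 and 0.30. Its sign therefore was not settled by these probe sets. Cdkn2a, the neighbouring gene that encodes p16 and Arf, had 9.155 and 9.11 and a difference of -0.095, with 5 of 8 probe sets lower and 3 higher. Cdkn2d, the Ink4 inhibitor p19, had 8.755 and 8.83 and a difference of 0.135, with all 4 probe sets higher as deposited and 3 of 4 after either rescaling. Cdkn1b, encoding the Cdk2 inhibitor p27, had 10.64 and 10.69 and a difference of 0.065.

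The pocket proteins, which bind E2F factors and silence their targets, were the role group with the highest median difference, 0.14 over 3 genes, none of them past 1.5-fold. Rb1, the retinoblastoma gene, had 10.045 in the array labelled WT and 10.215 in that labelled Smad3-/- and a difference of 0.14 (SD 0.27), with 26 of 28 probe sets higher. After quantile normalization 18 of the 28 were higher, and with the median gene difference set to 0 it was 21. Of the Rb1 probe sets 3 passed 1.5-fold, by 0.59, 0.79 and 0.93, and they read 8.35, 8.23 and 8.47 in the WT array, whereas the brightest read 12.45 and 12.58. Rbl1, encoding p107, had 10.175 and 10.365 and a difference of 0.17 (SD 0.21), with 19 of 26 probe sets higher. Rbl2, encoding p130, had 8.89 and 9.15 and a difference of 0.02, with 16 of 27 higher as deposited, 12 after quantile normalization and 13 with the median gene difference set to 0. It had the widest range of all members, from -0.89 to 0.93. The group's median stayed above 0 under every alternative, between 0.0449 and 0.19. It was lowest with a loess trend over signal subtracted. That left 0.0449 for Rb1, 0.0776 for Rbl1 and -0.0627 for Rbl2.

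Of the E2F family and its DP partners, 7 of 8 measured genes were within 0.1 and the exception was the DP factor. Tfdp1, encoding DP1, the partner that most E2F factors need to bind DNA, had 12.255 in the array labelled WT and 11.94 in that labelled Smad3-/- and a difference of -0.245 (SD 0.12), which is 1.19-fold. All 10 Tfdp1 probe sets were lower, by -0.55 to -0.14, and 9 of them lay between -0.38 and -0.14. The brightest read 13.08 and 12.86. Under the alternatives the gene's difference remained between -0.315 and -0.22.

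The E2F factors themselves showed no common direction. The activator E2f1 had 11.80 and 11.83 and a difference of 0.035, and E2f2, also an activator, had 7.68 and 7.73 under the floor and a difference of 0.05. E2f4 and E2f5, the factors that carry pocket proteins to their targets, had 11.09 and 11.10 and 11.585 and 11.575, with differences of -0.04 and -0.065. For E2f4, 11 of 16 probe sets were lower and none below -0.18. The repressor E2f6 had 10.16 on both arrays and a difference of 0.05, with 1 of 7 probe sets past 1.5-fold, which read 6.10 and 6.97. E2f7 and E2f8 are the atypical repressors that bind DNA without a DP partner. Their levels were 10.12 and 10.14 and 9.79 and 9.78, with differences of -0.02 and 0.02 over 19 and 18 probe sets.

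**Figure D3:**
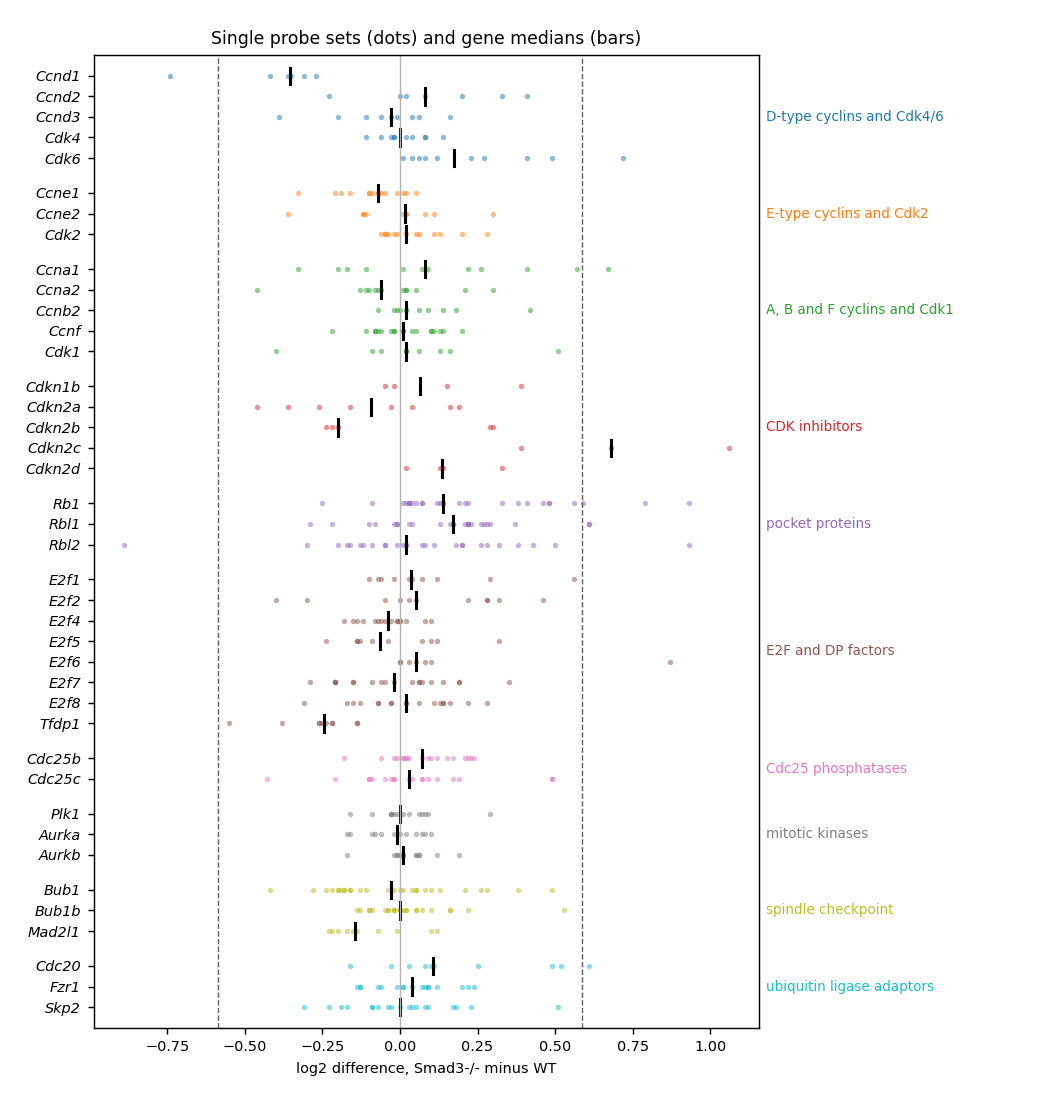
Log2 difference (x axis, Smad3-/- minus WT as labelled) of each of the 537 probe sets of the 40 genes (dots, coloured by role), with the gene's median as a black bar and 1.5-fold (0.585) as dashed lines. As deposited, the dots of Ccnd1 and Tfdp1 lie left of 0 and those of Cdk6, Cdkn2c and Cdkn2d right of it. The dots of Cdk4, E2f4, Aurka and Aurkb stay within 0.19 of 0.

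The Cdc25 phosphatases, which remove the inhibitory phosphates from CDKs, were within 0.1. Cdc25b had 9.63 and 9.79 and a difference of 0.07 (SD 0.11), with 15 of 19 probe sets higher but the brightest lower by 0.18 on the log2 scale. With the median gene difference set to 0, 10 of the 19 were higher, and after quantile normalization 7 were higher and 11 lower. Cdc25c had 9.61 and 9.68 and a difference of 0.03.

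Mitotic kinases were the group with the smallest differences. Plk1, which drives entry into mitosis, had 12.68 in the array labelled WT and 12.765 in that labelled Smad3-/- and a difference of 0.00, with 7 of 14 probe sets higher and 7 lower (5 and 9 with the median gene difference set to 0). Aurka, the kinase of spindle poles, had 12.595 and 12.55 and a difference of -0.01, and Aurkb, the kinase of the chromosomal passenger complex, had 12.95 and 12.96 and a difference of 0.01. Their SD over probe sets was 0.104, 0.0912 and 0.0834.

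In the spindle checkpoint, which holds anaphase back until every chromosome is attached, Mad2l1 stood lowest. Mad2l1, encoding the Cdc20 inhibitor Mad2, had 13.015 in the array labelled WT and 12.885 in that labelled Smad3-/- and a difference of -0.145 (SD 0.128), 1.11-fold, with 8 of 10 probe sets lower. It ran from -0.18 to -0.07 under the alternatives. The checkpoint kinase Bub1 had 12.01 and 11.935 and a difference of -0.03 over 28 probe sets, 15 of them lower. Bub1b, which encodes BubR1, had 11.63 and 11.57 and a difference of 0.00, with 11 of 25 probe sets higher and 11 lower. This balance held only as deposited, since 6 were higher and 18 lower after quantile normalization, and 8 and 17 with the median gene difference set to 0.

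Of the substrate adaptors of ubiquitin ligases, Cdc20, which the checkpoint inhibits and which starts anaphase with the anaphase-promoting complex, had 11.62 in the array labelled WT and 11.88 in that labelled Smad3-/- and a difference of 0.105 (SD 0.258). Of its 10 probe sets 8 were higher, 1 of them past 1.5-fold (8.23 and 8.84), and the brightest read 12.98 and 13.06. Fzr1, encoding Cdh1, the adaptor of that complex in G1, had 10.55 and 10.63 and a difference of 0.04. Skp2, the adaptor that targets p27, had 11.66 and 11.49 and a difference of 0.00, with 9 of 19 probe sets higher and 9 lower (7 and 12 after quantile normalization).

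At the level of single probe sets, 12 of the 537 of the members (2.23%) were higher by more than 1.5-fold, beside 5.95% of the 209279 named probe sets on the array, and 2 (0.372%) were lower, beside 3.65%. The 14 belonged to 9 genes, and 0 were past 4-fold. Of these, 10 were among the 88 member probe sets whose higher signal was under the median of all named probe sets, 9.07, and 4 among the 449 at or above it. Those 4 were the lowest Ccnd1 probe set (10.12 and 9.38), the highest of Cdk6 (9.16 and 9.88), 1 of Rb1 (8.47 and 9.40) and 1 of Rbl1 (9.42 and 10.03). A large difference in a single probe set was thus mostly a reading at low signal. The members' probe sets were brighter than most named ones, and their shares were not set beside probe sets of like signal.

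**Figure D4:**
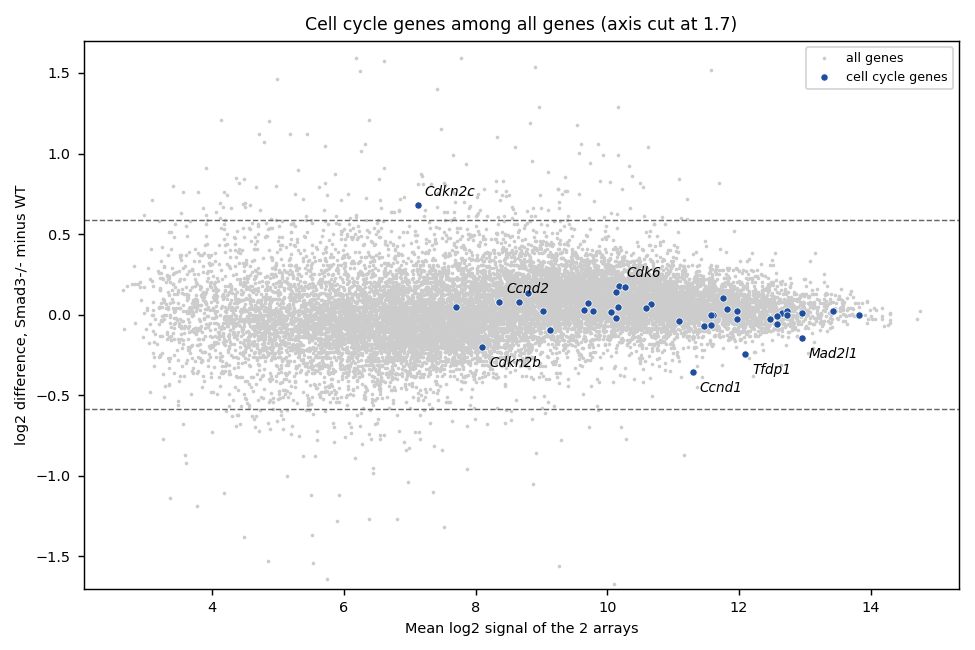
Log2 difference (y axis, Smad3-/- minus WT as labelled) against mean log2 signal of the 2 arrays (x axis) for all 16358 genes (grey) and the 40 cell cycle genes (blue), with 1.5-fold as dashed lines and 4 genes outside the plotted range. Cdkn2c (0.68) is the only blue point past a dashed line and lies at low signal, while Ccnd1 (-0.355), Tfdp1 (-0.245) and Mad2l1 (-0.145) are the lowest blue points above the expression floor.

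Beyond the members, 84 further genes of the same machinery were listed, 80 were measured, 76 of those were expressed and 0 were past 1.5-fold in a given direction, where the shares over all genes are 1.14% higher and 0.685% lower. Their median difference was 0.03, and 56 of the 80 were within 0.1, beside 46.1% of all genes and 59.8% of the brightest 25%. The 80 were not confined to that brightest class, so neither share is for genes of like signal. Among 19 other CDK regulators (median 0.03), the largest differences were 0.32 for Mnat1, the assembly factor of the CDK-activating kinase, and 0.29 for Fbxw7, the adaptor that targets cyclin E. The 9 probe sets of Mnat1 ran from -0.50 to 0.94, 6 higher and 2 lower, and its brightest had -0.09. Of the 16 of Fbxw7, 15 were higher. Among 8 genes of the DREAM and B-Myb complexes, which act through CHR elements, the median was 0.10 and the largest were 0.23 for Lin52 and 0.19 for Lin54, the subunit that binds the CHR. Lin52 was read by only 2 probe sets. Among 14 genes of the anaphase-promoting complex the median was 0.07, led by its subunits Anapc13 (0.285) and Anapc7 (0.22). All 4 probe sets of Anapc13 were higher, the brightest by 0.08.

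Of 19 other mitotic kinase and checkpoint genes (median 0.00), Plk2, a Polo-like kinase, had 0.29 with all 16 probe sets higher, and Mad1l1, which recruits Mad2 to kinetochores, had 0.27, whereas Mad2l1 itself was at -0.145. The 20 genes of spindle, kinetochore and cytokinesis had a median of 0.015, and 19 of them were within 0.1. The exception was Mki67, the gene of the proliferation marker Ki-67, with 9.87 in the array labelled WT and 10.41 in that labelled Smad3-/- and a difference of 0.54 (SD 0.2875). All 5 Mki67 probe sets were higher, by 0.08 to 0.71, and the brightest was the one at 0.08. Racgap1, a regulator of cytokinesis, came next with 0.09. Of the medians of the 5 lists, that of the DREAM and B-Myb complexes stayed above 0 under every alternative (0.0225 to 0.11), and the sign of the other 4 depended on the scaling or summary. Aurkc, Cdc26, Kntc1 and Cenpf were not analysed here.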

How the data were processed

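The values deposited by the authors are log2 signals of single probe sets from 1 Affymetrix mouse exon array for each of WT and Smad3-/- ESCs (229581 probe sets, medians 8.80 and 8.89). The submitters' processing notes name Affymetrix Expression Console and build mm8, and the methods Partek, Genespring and a 1.5-fold threshold. Background correction, summarization and normalization were not given in the sources used here, and the base of the logarithm was read from the range of the values, whose highest, 14.94, is 31433 on a linear scale.

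The platform annotation gave 209279 probe sets 1 symbol and 4446 several, which were not used (3 of them named Ccnd3 with its pseudogene), and 15856 had none here. Of 16380 symbols 14190 were current in RefSeq GRCm38.p6, 2145 older ones matched 1 gene and 45 did not match. That build is not mm8 and served for names and for promoters, and exon positions of probe sets were not used here. Members and lists were chosen with earlier results of these data known. The rule for named members took those past 1.5-fold, Ccnd2, the 2 with the largest difference in each role group and any with a probe set past 4-fold, which gave 21. Levels and differences of the other 19 measured members are given too. From the further lists the named genes were those past 1.5-fold or otherwise the 2 with the largest difference. With 1 array per genotype, precision is limited by their number and no test was run. The steps were tested on simulated data, with changes larger than 1.5-fold planted in expressed genes only. That test did not cover smaller differences or genes under the expression floor, such as Cdkn2c. Alternatives were quantile normalization, the median gene difference set to 0, a loess trend (fraction 0.3) subtracted, a pseudocount of 50, the mean or brightest probe set, dim probe sets left out, the farthest probe set left out of genes with 3 or more, a 2-fold threshold and expressed genes only. The difference of gene medians, and all alternatives for the other 19 members, were added after seeing the data. The software was pandas 2.3.3, numpy 2.4.6, statsmodels 0.14.6 and matplotlib 3.10.9 under Python 3.11.15.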

Additional observations from a re-analysis of the deposited data

How the results depend on the processing

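The count of members higher by more than 1.5-fold was 1, Cdkn2c, as deposited, and also with the median gene difference set to 0, after quantile normalization or subtraction of the loess trend, with the mean over probe sets and with the difference of gene medians. It was 0 with a pseudocount of 50, with the brightest probe set, with dim probe sets left out, with the farthest probe set of each gene left out, at a 2-fold threshold and among expressed genes only. The count of lower members was 0 throughout. The median over the members stayed between -0.0444 and 0.03, so its sign depended on the scaling, and it moved by less than the SD of the members' differences. For the 21 members that the rule named, 182 of 188 values under alternatives moved by less than the SD over the gene's probe sets and 6 by more. These 6 were Ccnd2 with the brightest probe set and with dim probe sets left out (-0.23 each) and with the difference of gene medians (0.41), Ccne1 with the difference of gene medians (-0.21), and Ccna2 (-0.46) and Cdc25b (-0.18) with the brightest probe set. For the other 19 measured members 170 of 171 values moved by less, the exception being Cdkn2a with the brightest probe set (0.19). The cause was not tested. Setting the median gene difference to 0 shifts every gene by 0.035, less than the smallest SD over probe sets, 0.0748. That alternative therefore could not count as a move for any member. Nor could the mean over probe sets, since a mean never lies farther from the median than the SD. The counts of 182 and 170 include both, so they are not a measure of how firm the values are. A change of sign within the SD was not counted either, as for Ccna1, at 0.08 as deposited and -0.20 with the brightest probe set. Of 90 values for the role groups 16 moved by more than the SD within the group, and of 45 for the further lists 0 did. No paired analysis was possible because 1 array stood for each genotype. Signal over background of each probe set was not used here, so differences of genes under the expression floor, Cdkn2c, Cdkn2b, Ccnd2 and E2f2, are the least certain.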
